A study of Mus musculus with 2 samples.

Results

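The Toll-like receptors and partners described here were Tlr1, Tlr2, Tlr3, Tlr4, Tlr6, Tlr7, Tlr9, Cd180, Ly86 and Myd88, taken by gene symbol from the platform's probe table. All 10 genes were on the array, with 16 of its 45037 probe sets that are not controls, and they stand among 18193 genes named by 1 symbol. The RNA came from B cells of NOD mice, a strain prone to autoimmune diabetes, sorted as B220-positive cells without Thy1 or CD11c at 8 weeks of age. One array held RNA of 2 AIRE transgenic mice, which carry human AIRE under an MHC class II promoter, and 1 array held RNA of 2 non-transgenic NOD mice. Such a promoter is active in antigen-presenting cells in general, so expression of the transgene need not be limited to B cells. The comparison asked whether B cells with the transgene differ in the transcripts of their microbial sensors. With 1 array a group no difference could be tested or checked in replicates, and the ratios describe these 2 pools of RNA only.

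Toll-like receptors recognise conserved microbial molecules through leucine-rich repeats and signal through a cytoplasmic TIR domain. At the cell surface Tlr2 pairs with Tlr1 or Tlr6 to bind lipopeptides, and Tlr4 binds lipopolysaccharide, while Tlr3, Tlr7 and Tlr9 sense nucleic acids inside endosomes. Cd180, also called RP105, resembles Tlr4 outside the cell but lacks the TIR domain, and it reaches the surface of B cells with the secreted protein MD-1, encoded by Ly86. B cells unite these sensors with an antigen receptor, and Tlr7 and Tlr9 are known for their part in B cell responses to self nucleic acids.

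Intensities are given after the medians of both arrays were aligned, in the array's linear units. A log2 ratio above 0 means a higher value with the transgene, and any intensity under 25.1, the floor, was raised to it first. A gene counted as above the filter when its higher value reached the pooled median of 98.8, and 10778 of 18193 named genes (59.2%) did so. The median of their log2 ratios was 0.19 (SD 0.58 across genes), so a value of 0.19 marks the typical gene. In the values as deposited that median was 0.01, and it was 0.05 under quantile and 0.04 under loess normalization. Of the B cell markers, 9 were measured here and all 9 lay above the filter on both arrays, among them Ms4a1 at 29789 with and 38866 without the transgene. Thy1, a T cell gene used to exclude cells from the sort, was at 101 and 208, and Itgax, which encodes CD11c, was at 804 and 670. In these bulk samples fewer cells of a type and less RNA per cell cannot be told apart.

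Transcripts of all 10 genes were above the filter on at least 1 array, and those of 9 on both. The exception was Tlr9, which was above it on the non-transgenic array only. As a second gauge, 80 probe sets for olfactory and vomeronasal receptors, which B cells are not known to express, had a 95th percentile of 84.3 with and 91.4 without the transgene. The same 9 genes exceeded these levels on both arrays, and 2.5% of the 80 probe sets passed the filter. Of the 16 probe sets, 13 were above the filter on both arrays. A probe set's intensity also depends on how well its probes bind, so the order of intensities between genes is not an order of transcript abundance. Ly86 and Tlr1 lay in the brightest part of the array, with 99.3% and 97.5% of probe sets dimmer on the transgenic array. Tlr2, Tlr3, Tlr4, Tlr6 and Tlr7 lay between the 67.3rd and 81.4th percentiles by the probe set that represents each gene, and Tlr9 stood at the 44.2nd with and the 60.5th without the transgene.

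**Figure D1:**
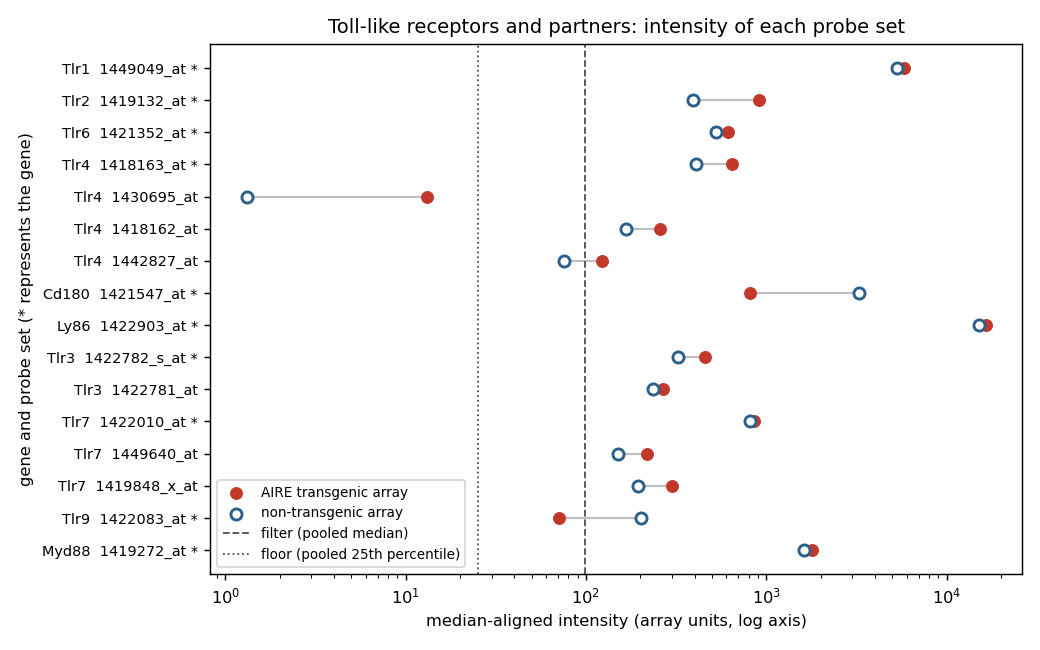
Median-aligned intensity (log axis) of each of the 16 probe sets on the transgenic array (filled circles) and the non-transgenic array (open circles), with the filter at 98.8 and the floor at 25.1. An asterisk marks the probe set that represents its gene. Cd180 and Tlr9 lie far to the left on the transgenic array and Tlr2 to the right, while Tlr1, Ly86, Myd88 and the brightest Tlr7 probe set nearly coincide.

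By size, Tlr2 was the only 1 of the 10 genes to reach a 2-fold higher value with the transgene, and 2 reached a 2-fold lower value, Cd180 and Tlr9. Over all 10778 genes above the filter, 4.43% were higher and 3.19% lower by this measure. The other 7 genes had log2 ratios from 0.07 to 0.66. The median of all 10 was 0.14, against 0.19 over all genes above the filter, and 4 of the 10 lay above that array-wide median.

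Tlr2, the shared subunit of the lipopeptide receptors, had 1 probe set (1419132_at), at 912 with the transgene and 394 without it. Its log2 ratio was 1.21, or 2.32-fold higher, and 269 of the 10778 genes had a ratio at least as high. Among the 4347 genes with a mean level of 500 to 2000, where Tlr2 lies, 2.58% were higher by 2-fold or more. Of the alternatives, only the 3 other scalings can move the value of a single bright probe set, and under them the log2 ratio was 1.05 to 1.09.

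The subunits that pair with Tlr2 differed less. Tlr1, which serves the receptor for triacylated lipopeptides, was at 5797 and 5329 by its only probe set (0.12). Tlr6, which serves the receptor for diacylated lipopeptides, was at 617 and 524 by its only probe set (0.24). Both lay within 0.1 of the array-wide median ratio, and the sign of Tlr1 turned in the values as deposited (-0.04) and under quantile (-0.07) or loess (-0.05) normalization. The log2 ratio of Tlr2 exceeded that of Tlr1 by 1.09 and that of Tlr6 by 0.98, differences that any constant scaling of an array leaves as they are. Tlr1 and Tlr6 are neighbours in the RefSeq annotation of GRCm38.p6, with 0 protein-coding genes between them.

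Tlr4, the lipopolysaccharide receptor, was read by 4 probe sets. The brightest (1418163_at) was at 649 with the transgene and 410 without it (0.66), the next (1418162_at) at 258 and 166 (0.63), and the third (1442827_at) at 123 and 75.3 (0.71). These 3 gave nearly the same ratio, 1.55- to 1.63-fold higher, short of 2-fold. The brightest and the next were designed on 1 common sequence record. The third was above the filter on the transgenic array only. Its value of 75.3 without the transgene lay under the 95th percentile of the olfactory and vomeronasal probe sets (91.4). The fourth (1430695_at) was under the floor on both arrays and carries no information on a difference. Ly96, or MD-2, the lipopolysaccharide-binding subunit of Tlr4, was at 544 and 374 (0.54), so that the ratios of receptor and subunit differed by 0.12. Cd14, which hands lipopolysaccharide to them, was at 287 and 335 (-0.22).

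Cd180 had the largest difference of the 10 genes. Its only probe set (1421547_at) was at 814 with the transgene and 3267 without it, a log2 ratio of -2.00, or 4.01-fold lower. Of the 10778 genes, 62 had a ratio as low or lower. Both values were far above the filter, and of the 4347 genes of like level (500 to 2000), 1.27% were at least 2-fold lower. Under the 3 other scalings the log2 ratio ran from -2.21 to -2.17. Ly86, whose product accompanies Cd180 to the cell surface, was at 16435 and 15137 (0.12) by its only probe set, and its sign turned without the alignment (-0.05). Receptor and partner thus differed unequally, with the log2 ratio of Cd180 lower than that of Ly86 by a difference of -2.12, which ran from -2.12 to -2.31 under the 4 scalings. The log2 ratio of Tlr4, to which Cd180 is related in structure, was higher than that of Cd180 by 2.67.

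**Figure D2:**
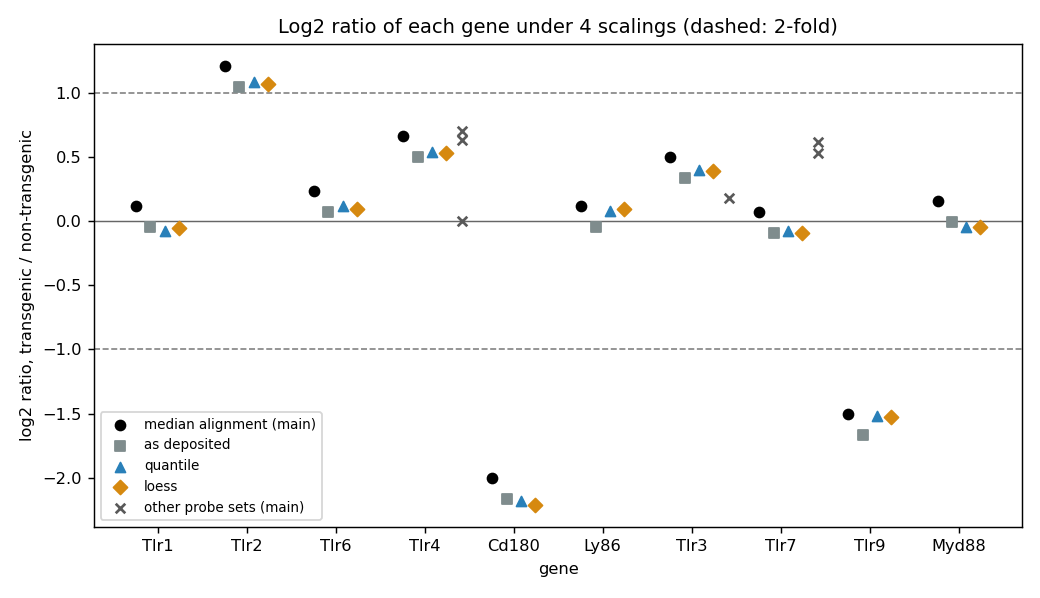
Log2 ratio of each of the 10 genes by its representing probe set under 4 scalings, with further probe sets of Tlr3, Tlr4 and Tlr7 as crosses, and the 2-fold limits dashed. Tlr2 stays above 1 and Cd180 and Tlr9 stay below -1 under every scaling drawn, while Tlr1, Tlr7, Ly86 and Myd88 cross 0 under at least 1 of them.

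Tlr9, the endosomal receptor for unmethylated CpG DNA, was at 70.9 with the transgene and 201 without it by its only probe set (1422083_at). Its log2 ratio was -1.50, or 2.84-fold lower, and 136 of the 10778 genes had a ratio as low or lower. The transgenic value lay under the filter and under the 95th percentile of the olfactory and vomeronasal probe sets, so the fold is less certain than that of Cd180. Among the 1999 genes with a mean level under 200, 11.1% were at least 2-fold lower, against 3.19% over all levels. A floor at the pooled median put the log2 ratio at -1.02, and requiring both values above the filter left the gene out.

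Tlr7, the endosomal receptor for single-stranded RNA, was read by 3 probe sets that differed from each other. The brightest (1422010_at) was at 853 and 810 (0.07). The other 2 probe sets, designed on 1 common sequence record, were dimmer and gave higher ratios, at 300 and 195 (0.62; 1419848_x_at) and at 217 and 150 (0.53; 1449640_at). The suffix of the former marks probes that may also bind other transcripts. Tlr7 is X-linked, and the Y-linked Eif2s3y was at 2701 and 1836 and Kdm5d at 1680 and 1196, with Xist at 152 and 149, so transcripts of the Y chromosome were read on both arrays.

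Tlr3, the receptor for double-stranded RNA, was at 456 and 323 (0.50) by a probe set shared between transcripts (1422782_s_at) and at 266 and 234 (0.18) by the other (1422781_at). Both values lay within 2-fold. Myd88, the adaptor through which all Toll-like receptors named here except Tlr3 signal, was at 1799 and 1610 by its only probe set (0.16), close to the array-wide median. Its sign turned under quantile (-0.04) and loess (-0.05) normalization, and in the values as deposited both arrays were alike (1695 and 1699).

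**Figure D3:**
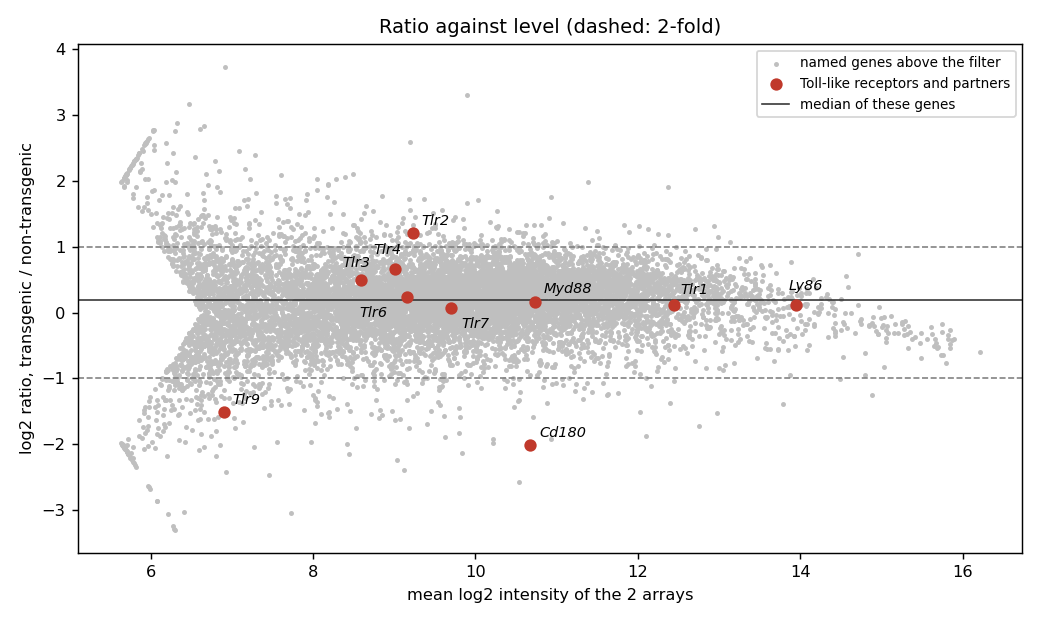
Log2 ratio against mean log2 intensity for the 10778 named genes above the filter (grey), with the 10 receptors and partners in red, the median ratio of 0.19 as a line and 2-fold dashed. Cd180 lies below nearly all genes of its level, Tlr2 above most of its level, and Tlr9 in the dim range where ratios scatter widely.

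The promoters of the 3 genes at least 2-fold apart are shown for the transcription factor motifs that lie before the genes that differed most. Each is the 250 bases before the annotated start in RefSeq GRCm38.p6, Cd180 at chr13:102693297-102693546 on the plus strand (the first of its 2 annotated windows), Tlr9 at chr9:106222348-106222597 on the plus strand and Tlr2 at chr3:83841609-83841858 on the minus strand. Capitals mark matches, on either strand, to the motifs named after the sequences.
Cd180: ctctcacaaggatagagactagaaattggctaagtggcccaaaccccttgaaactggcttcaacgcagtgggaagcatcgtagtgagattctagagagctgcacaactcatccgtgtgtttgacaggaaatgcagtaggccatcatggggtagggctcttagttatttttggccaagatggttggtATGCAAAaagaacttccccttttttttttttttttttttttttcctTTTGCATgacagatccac
Tlr9: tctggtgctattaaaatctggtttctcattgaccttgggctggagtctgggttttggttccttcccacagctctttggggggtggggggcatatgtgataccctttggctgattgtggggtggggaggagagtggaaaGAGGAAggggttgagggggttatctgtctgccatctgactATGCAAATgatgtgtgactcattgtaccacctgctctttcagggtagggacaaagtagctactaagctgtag
Tlr2: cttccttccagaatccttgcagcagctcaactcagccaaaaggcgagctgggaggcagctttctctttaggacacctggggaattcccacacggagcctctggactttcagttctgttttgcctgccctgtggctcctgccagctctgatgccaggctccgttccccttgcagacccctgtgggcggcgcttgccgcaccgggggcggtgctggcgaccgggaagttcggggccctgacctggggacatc
Motifs were counted in windows of 300 bases, 250 before and 50 after the start, and 8 of the 10 genes had such windows, 11 in all. The octamer ATGCAAAT, bound by Oct proteins, was found in Tlr9 at position -72 and in no other of these genes, against 1.74% of all 32851 promoter windows. Without its last base, a form chosen after the sequences were seen and contained in the octamer, ATGCAAA was found in Tlr9 and, on either strand, at -64 and -18 in Cd180. It occurred in 4.63% of all windows. GAGGAA, the core bound by the myeloid and B cell factor PU.1, was found in Tlr1 and Tlr9 and in 28.3% of all windows. The core of the interferon-stimulated response element, a pair of GAAA runs with any 2 bases between, was found in Tlr6 (TTTCTCTTTC and the overlapping TTTCACTTTC, on the opposite strand) and in Myd88 (GAAAGCGAAA), against 3.44% of all windows. The consensus NF-kB site was found in none of them and in 0.155% of all windows. The window of Tlr2 held none of these motifs as spelled here, so its sequence has no capitals, and it may hold looser forms of them. A match shows letters in a window and not a bound site.

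The rest of the pathway was described by fixed lists of 46 genes, of which 41 were measured here and 37 lay above the filter. By the probe set that represents each gene, none of the 37 was at least 2-fold apart, against 7.62% of all genes above the filter. That share falls with level and was not matched to the 37 genes, so it does not show them to be unusually stable. Of genes with a mean level under 200, 12.7% were at least 2-fold higher and 11.1% lower. Of those at 500 to 2000, 2.58% were higher and 1.27% lower. The median log2 ratio of the 37 was 0.17, with 17 above the array-wide median. The range was -0.74 to 0.96. Further probe sets above the filter were lower by 2-fold or more in 3 of these genes, at -1.52 for Ikbkb, -1.45 for Ikbkg and -1.11 for Irak1.

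Of the remaining Toll-like receptors, 4 were measured and 2 lay above the filter. Tlr13, a sensor of bacterial ribosomal RNA, was at 183 and 114 (0.69), and Tlr12, a sensor of parasite profilin, at 144 and 120 (0.27). Tlr5, the flagellin receptor, was under the filter at 76.9 and 92.3, and Tlr8 at 7.11 and 47.9.

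All 5 genes for the chaperoning and transport of the receptors lay above the filter, with a median of 0.05. Hsp90b1, the endoplasmic reticulum chaperone that folds most Toll-like receptors, was at 13951 and 10005 (0.48), with its other probe set at 0.13. Unc93b1, which carries the nucleic acid receptors to endosomes, was at 8606 and 7253 (0.25). Cnpy3, a partner of Hsp90b1 in folding these receptors, was the lowest of the 5 at 1093 and 1821 (-0.74), and was picked for mention after its values were seen. Of the proteases that trim endosomal receptors, 4 of 5 were above the filter with a median of 0.34, led in level by Ctss at 15342 and 13350 (0.20) and Ctsb at 6756 and 4830 (0.48).

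The 4 adaptors measured had a median of -0.10. Pik3ap1, which links the receptors to phosphoinositide kinase, was at 8700 and 7685 (0.18) and its other probe set at -0.50. Tirap, which bridges Myd88 to Tlr2 and Tlr4, was at 793 and 650 (0.29) and its other probe set at -0.71. Ticam1, the adaptor of Tlr3, was picked after its values were seen and was at 414 and 645 (-0.64). Probe sets of Pik3ap1 and Tirap thus disagreed in sign.

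Among kinases and ubiquitin ligases 11 were measured, all above the filter, with a median of 0.19. Tab2, an adaptor of the kinase Map3k7, was at 7516 and 4493 (0.74), and Ikbkb, a catalytic subunit of the IkB kinase, at 7019 and 8131 (-0.21), with its other 4 probe sets from -1.52 to 0.16. The highest ratio belonged to Irak1, the kinase that Myd88 recruits, at 3051 and 1566 (0.96), but its other 3 probe sets ranged from -1.11 to -0.07, so its direction is uncertain. The 6 signal inhibitors had a median of 0.04, with Nrros, which restrains receptor signalling, at 4683 and 4583 (0.03) and Tnfaip3, the deubiquitinase A20, at 3029 and 2570 (0.24) with its other probe set at -0.21. Of the interferon regulatory factors, Irf3 was at 3268 and 3338 (-0.03), Irf5 at 2699 and 3021 (-0.16) and Irf7 at 1035 and 672 (0.62).

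**Figure D4:**
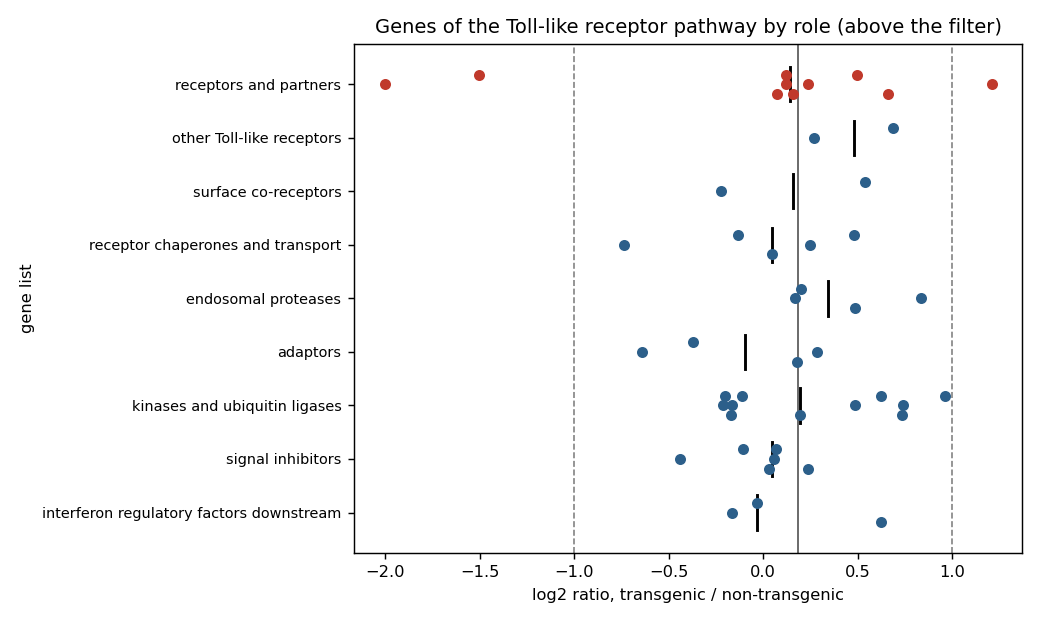
Log2 ratio of each gene above the filter, by its representing probe set and by role, with black ticks at the list medians, the array-wide median of 0.19 as a line and 2-fold dashed. The 3 points outside the dashed lines are Cd180, Tlr9 and Tlr2, and the 37 genes of the other lists lie between -0.74 and 0.96.

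Markers of other cells are given because several carry Toll-like receptors. Tlr2 and Tlr4 are known for their expression in myeloid cells. All 10 macrophage and monocyte markers measured were above the filter. By their representing probe sets none was 2-fold apart, the median log2 ratio was 0.03 and summed intensity was 12560 with and 11348 without the transgene. Further probe sets above the filter passed 2-fold in both directions, at -1.64 for Fcgr1 and up to 1.35 for Ccr2. In that list the receptor Csf1r was at 4090 and 2584 (0.66), Itgam at 135 and 142 (-0.07) and Lyz2 at 5939 and 6172 (-0.06). Of 9 neutrophil markers, 7 were above the filter with a median of 0.77, and 4 lay above the array-wide median. At least 2-fold higher were 2, Ngp and Mpo, against 4.43% of all genes above the filter. Mpo, at 106 and 50.7 (1.06), was under the filter without the transgene. The summed intensity of the list was 9698 and 9496, most of it from S100a8 and S100a9. Ngp, a granule protein, was at 1011 and 371 (1.45), while S100a8, the brightest, was at 3913 and 4393 (-0.17), and Elane and Cxcr2 were under the filter on both arrays. The part of these cells in the Tlr2 and Tlr4 values was not tested.

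Tlr7 and Tlr9 are also known in plasmacytoid dendritic cells. Their 6 markers were all above the filter, 2 of them at least 2-fold higher, with a median of 0.07 and a summed intensity of 16652 and 21017, most of it from Spib, which B cells share. By their representing probe sets, the higher members were Klk1 at 1447 and 593 (1.29) and Ccr9 at 1453 and 698 (1.06). Their other probe sets above the filter fell short of 2-fold, at 0.43 to 0.48 for Klk1 and -0.31 to 0.26 for Ccr9. Siglech, which defines plasmacytoid dendritic cells, was at 830 and 882 (-0.09). Of the conventional dendritic cell markers, 4 of 5 measured were above the filter, none 2-fold apart, with a sum of 1960 and 1640 and Xcr1 under the filter. B cell markers had a median of -0.41 over 9 genes, 1 of them at least 2-fold lower and 8 below the array-wide median ratio, with a summed intensity of 118010 and 182943. By their representing probe sets these ran from -1.26 for Cd79a to 0.19 for Fcrla, all above the log2 ratio of Cd180 (-2.00). Further probe sets above the filter were at -1.28 for Pax5 and from -1.11 to 0.05 for Ebf1. Natural killer cell markers had a median of 0.63 over 6 genes with 2 at least 2-fold higher (sum 6823 and 4064), and T cell markers a median of -0.28 over 6 genes with 1 higher and 1 lower (sum 1323 and 1402). The type I interferon response had a median of 1.48 over 11 genes, 9 of them at least 2-fold higher. The part of any of these in the ratios of the receptors was not tested.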

How the data were processed

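Each group was read on 1 Affymetrix mouse array. The authors deposited a linear intensity for every probe set. Their software and scaling are not given in the sources used here, but the mean of the deposited intensities without the top and bottom 2% was 500.0 on both arrays. Per the labels, RNA was isolated with a column kit and labelled with biotin. The 64 control probe sets were left out. Of the rest, 34945 had 1 gene symbol, 932 several and 9160 none, and only the first kind was named. The platform's symbols and Entrez identifiers of all 10 genes matched RefSeq (GRCm38.p6).

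The medians, 93.1 and 104.3, were aligned (factors 1.06 and 0.947), dim values were raised to the pooled 25th percentile, and log2 was taken. The probe set of highest mean level represented a gene. Without replicates no test was run, and precision is limited by there being only 2 arrays. The genes and lists were chosen with earlier results of these data known. Named were all probe sets of the 10 genes and each pathway gene past 2-fold or otherwise the 2 brightest of a list. Of the cell lists other than those of natural killer and T cells, the brightest and the defining markers were named. Genes named beyond that (Tlr5, Tlr8, Cnpy3, Ticam1, Irak1, Ikbkg, Irf7, Ngp, Klk1, Ccr9, Elane, Cxcr2, Xcr1, Fcrla, Pou2f2 and the sex-linked ones) were chosen after their values were seen. Fcgr1, Ccr2, Pax5, Ebf1, Cd79a, Mpo, S100a9 and Cd4 were likewise named after their values were seen. The steps were checked on simulated data, and 12 alternatives were tried. The simulated differences were larger than that of Tlr2 and lay in bright genes only. That check therefore does not speak for smaller differences or for dim genes such as Tlr9. Software was Python 3.11.15 with pandas 2.3.3, numpy 2.4.6, statsmodels 0.14.6 and matplotlib 3.10.9.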

Additional observations from a re-analysis of the deposited data

How the results depend on the processing

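Tlr2 and Cd180 have 1 bright probe set each, so only the 3 other scalings could move their ratios, and under these they stayed past 2-fold. Tlr9 did so too, and was at -1.02 with the floor at the median. Tlr9 was lost when both values had to pass the filter, which left 9 genes. It was also lost, together with Tlr3, with the filter at the 75th percentile, which left 8. In each case 1 of the genes left was lower by 2-fold. The median of the 10 genes was -0.0229 in the values as deposited, 0.0182 under quantile and 0.0224 under loess normalization, as the alignment itself shifts every ratio. At a limit of 1.5-fold, Tlr4 also passed, which made 2 of the 10 higher. Without probe sets marked as shared, 1 pathway gene was 2-fold apart, Irak1 at -1.11, by the single brightest probe set that remained for it. At 1.5-fold there were 9 pathway genes apart, and 1879 higher and 907 lower among all named genes. Over all named genes the counts past 2-fold, higher and lower, were 477 and 344 (58.1% higher), against 292 and 514 as deposited (36.2%), while 48.0% were higher under quantile and 51.0% under loess normalization. They were 941 and 918 without a filter, 247 and 139 with both values above it, 170 and 94 with the filter at the 75th percentile and 286 and 171 with the floor at the median. They were 290 and 255 when probe sets of a gene were averaged, and 242 and 438 (35.6% higher) when the one of median ratio stood for it. No replicate could be left out, and no paired analysis was possible because each group is 1 array. Without detection calls, values near the filter such as those of Tlr9 are the least reliable.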

Other observations

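Pou2f2, the gene of the B cell octamer-binding protein Oct-2, was picked out after its values were seen. Its brightest probe set was at 610 with the transgene and 3618 without it (-2.57), and the other 2 gave -1.88 and -1.69. Whether it bears on Tlr9 or Cd180, whose promoter windows hold the letters ATGCAAA, was not tested. That short form was chosen after the sequences were seen and lies in 4.63% of all windows. The full octamer was found in Tlr9 and not in Cd180.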
